A study of Mus musculus with 6 samples.

Results

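The genes of the mitochondrial genome were followed in the gastrocnemius, a calf muscle of mostly fast fibres, of mice with and without the long non-coding RNA lnc-ORA. The members are all rows of the expression table whose gene name starts with mt-, which gave 32 genes of 11815 in all: 11 mRNAs, 2 rRNAs and 19 tRNAs. The mouse mitochondrial genome has 37 annotated genes, and mt-Tf, mt-Td, mt-Co2, mt-Tk and mt-Atp8 were not analysed here. The knockout (KO) group had 3 libraries, replicates 1, 2 and 3, from animals in which CRISPR cut out 5147 bp holding all of lnc-ORA. The wild-type (WT) group had 3 libraries, replicates 2, 3 and 4. Both groups were on a C57BL/6 background, founders had been bred to wild-type mice, and the age stated, in a sentence on the KO mice, is 15 weeks. The stated aim concerned the conversion of muscle fibre types. The labels of single libraries give neither an age nor the mouse, so p-values reflect the spread among these libraries, which may be technical.

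Mitochondrial DNA is a small circle that is transcribed from both strands as long precursor RNAs. Most mRNAs and both rRNAs are bordered by tRNAs, and the excision of these tRNAs releases the RNAs between them. The proteins made are subunits of respiratory complexes I, III and IV and of ATP synthase, which in muscle supply ATP to oxidative fibres above all. Nuclear chromosomes carry copies of parts of the circle, and a read from a shared stretch can be placed on either.

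The sequences of 4 tRNA genes are shown because these were the tRNA genes called between the genotypes. They are DNA letters of the strand of the gene, from GENCODE M21 (GRCm38), and the anticodon is in capitals.
mt-Tv (valine, chrM:1025-1093, plus strand): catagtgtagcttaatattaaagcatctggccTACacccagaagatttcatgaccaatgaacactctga
mt-Tl1 (leucine, chrM:2676-2750, plus strand): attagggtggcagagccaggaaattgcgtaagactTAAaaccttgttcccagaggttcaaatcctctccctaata
mt-Tm (methionine, chrM:3845-3913, plus strand): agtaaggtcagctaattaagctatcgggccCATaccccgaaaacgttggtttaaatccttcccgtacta
mt-Tg (glycine, chrM:9391-9458, plus strand): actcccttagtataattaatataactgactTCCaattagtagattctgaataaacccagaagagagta
The first 3 lie in the part of the circle that opens with the rRNA genes, and each is joined without a gap to the gene that follows it, mt-Rnr2, mt-Nd1 and mt-Nd2 respectively. No 50-base stretch of any of these 4 tRNA genes occurs in an annotated transcript outside the mitochondrial genome. Nuclear sequence outside annotated transcripts was not searched, so copies there would have been missed.

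The libraries held 54370181 to 69693905 counted reads. Values are RPKM, reads per kilobase of gene scaled to the library's counted reads, and RPKM times gene length gave whole reads (within 0.02 of a read) for all 32 members in all 6 libraries. Genotypes were compared with limma on log2(RPKM + 1) over the 7574 genes with at least 1 RPKM in at least 3 libraries, and "called" means a Benjamini-Hochberg adjusted p under 0.05. Of all tested genes, 13.5% were called lower in KO and 3.83% higher, 1021 against 290 genes, and the median log2 fold change was -0.09. With library medians made equal the split was 665 lower and 602 higher and the median 0.01, and with totals that leave out the 10 most abundant genes it was 600 and 683 and the median 0.02. The labelled tissue had its defining markers: all 8 muscle genes listed (such as Ckm and Acta1) were measured, with a summed level of 75387 to 81387 RPKM in WT and 84686 to 88386 in KO. Most of this sum is Myh4 and Tnnt3, and Mb, the oxygen store of oxidative fibres, was the one gene of the list called lower, from 1621 ± 236 to 872 ± 215 RPKM (log2 fold change -0.91, adjusted p = 0.014). The deleted locus itself was not analysed here.

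Among the mitochondrial genes, 3 were called lower in KO, the tRNA genes mt-Tv, mt-Tl1 and mt-Tm. 3 were called higher, the tRNA gene mt-Tg and the mRNA genes mt-Nd3 and mt-Co3. All 32 members passed the filter, mt-Tg only through the KO libraries, so its call follows in part from the filter. mt-Co3 reached 1 RPKM in every KO library but, among the WT libraries, in replicate 4 alone. Its call thus also follows in part from the filter. The 3 lower calls are 9.38% of the members, under the 13.5% of all tested genes, and the 3 higher calls 9.38% against 3.83%. The median log2 fold change was -0.27 over all members, -0.23 over the mRNAs, 0.05 over the rRNAs and -0.43 over the tRNAs. These medians depend on single libraries and on scaling: that of the mRNAs was -0.07 without WT replicate 4, -0.15 without KO replicate 3 and -0.08 without the 10 most abundant genes in the totals. That of the tRNAs was -0.26 without WT replicate 2 and -0.27 without KO replicate 3, and that of the rRNAs turned to -0.03 without WT replicate 3 or 4. The KO libraries lay below every WT library for 9 members and above every WT library for 3, or 28.1% and 9.38% of the members, where 30.0% and 9.22% of all tested genes did so. At an unadjusted p under 0.05 there were 9 lower and 3 higher members, 37.5% of them, against 33.4% of all tested genes.

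**Figure D1:**
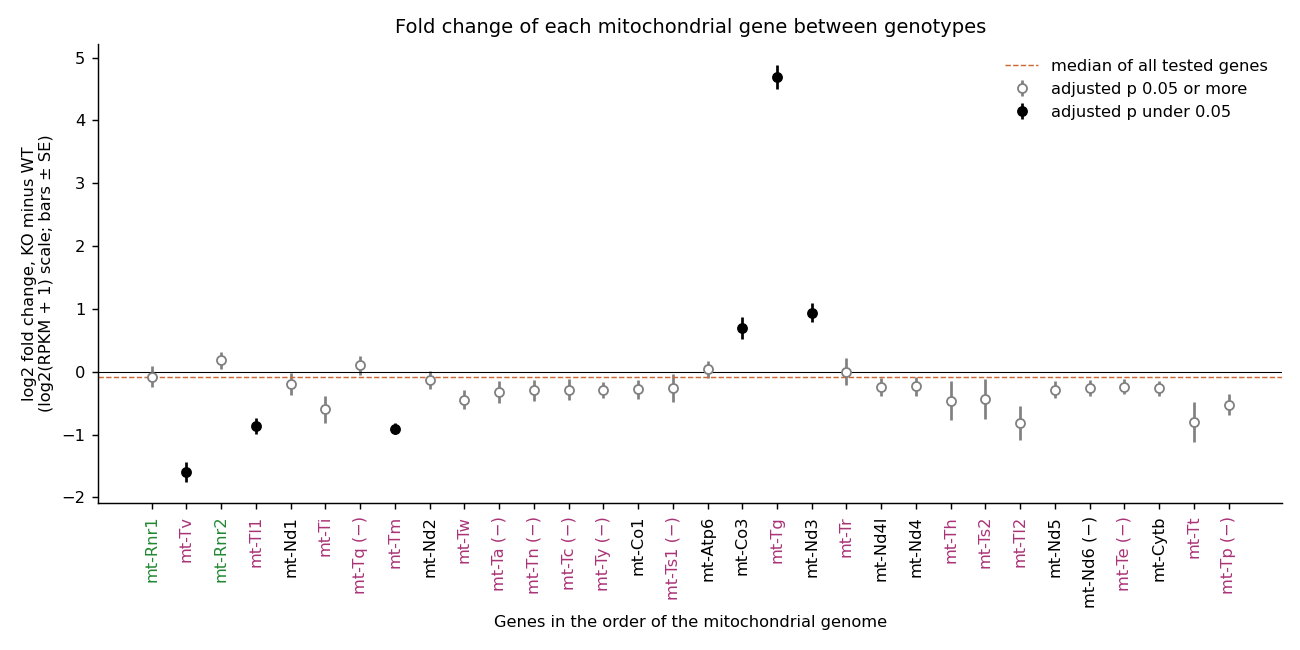
Log2 fold change, KO minus WT, on the log2(RPKM + 1) scale for the 32 measured mitochondrial genes in genome order, with bars of 1 SE; filled points were called by limma and the dashed line is the median of all tested genes (-0.09). The filled points below 0 are mt-Tv, mt-Tl1 and mt-Tm, and those above 0 are the neighbours mt-Co3, mt-Tg and mt-Nd3.

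The annotation puts 28 genes on the plus strand and 9 on the minus strand. The minus-strand genes, all 9 of them measured, were mt-Nd6 and the tRNA genes mt-Tq, mt-Ta, mt-Tn, mt-Tc, mt-Ty, mt-Ts1, mt-Te and mt-Tp. In order, mt-Rnr1, mt-Tv, mt-Rnr2, mt-Tl1 and mt-Nd1 follow each other with 0 bases between them. The cluster of mt-Ta, mt-Tn, mt-Tc and mt-Ty on the minus strand is broken by a gap of 32 bases between mt-Tn and mt-Tc, where the light-strand origin of replication lies. Some neighbours overlap: mt-Nd4l and mt-Nd4 share 7 bases, and mt-Nd5 and mt-Nd6, on opposite strands, share 14. The sources used here do not say how strand was handled in counting, so RNA from the opposite strand cannot be told apart from that of the gene named.

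The levels per length fell into steps that went with class and position. The mRNAs other than mt-Nd3, mt-Atp6 and mt-Co3 had WT means from 6395 RPKM for mt-Nd4 to 13191 for mt-Nd1. The rRNAs were far below them, at 348 ± 92.1 RPKM for mt-Rnr1 and 212 ± 36.7 for mt-Rnr2 in WT (SD, n = 3 each). The part of library preparation in this gap was not tested, so the rRNA values need not be the levels in the muscle. Reads of mt-Nd3, mt-Atp6 and mt-Co3 can also be placed on nuclear copies, described further on, so their values need not be either. The tRNA genes spread over a wide range, from 7013 RPKM for mt-Ty to 0.365 for mt-Tg in WT. The minus-strand tRNA genes were the more abundant of the 2 kinds by median, with a median of the WT means of 2256 RPKM over 8 genes, against 113 over the 11 plus-strand tRNA genes. Of the minus-strand tRNA genes 5 stood above 1000 RPKM and 3 below it, mt-Ts1 at 19.5, mt-Tp at 193 and mt-Tq at 543 in WT. Of the plus-strand tRNA genes, mt-Tm stood above 1000 RPKM and the other 10 below it. The tRNA genes measured 59 to 75 bases, and a read counted on one may also cover an adjoining gene; the rule for such reads is not stated in the labels, so RNA of a tRNA and of a longer precursor cannot be told apart.

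**Figure D2:**
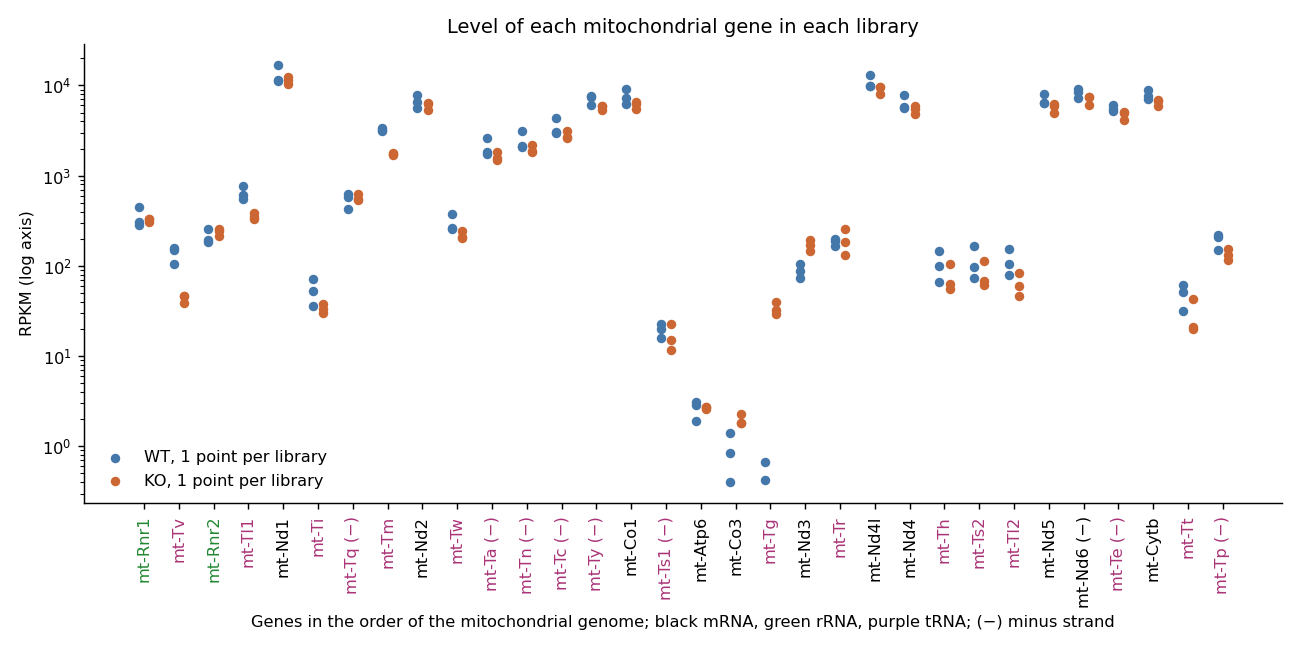
RPKM on a log axis of each mitochondrial gene in genome order, 1 point per library, WT in blue and KO in orange; the library at 0 for mt-Tg, WT replicate 3, is not drawn. The 8 abundant mRNAs lie near the top in every library, mt-Ty and mt-Te are close to them, and the stretch from mt-Atp6 to mt-Nd3 drops to between 0.399 and 196 RPKM in the points drawn.

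mt-Nd1, a membrane subunit of complex I and the most abundant of the measured mRNAs, was at 11489.7, 11169 and 16913 RPKM in WT replicates 2, 3 and 4. In KO replicates 1, 2 and 3 it was at 12401, 11399 and 10296 RPKM, inside the WT range but for the last. The groups overlapped, and the log2 fold change of -0.19 (SE 0.17) did not pass (adjusted p = 0.469, limma). The rank of mt-Nd1 holds for genes as counted, as mt-Atp6 summed with its chromosome 1 copy had 29459 ± 3625 RPKM in WT.

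mt-Nd2, also of complex I, stood at 6497, 5590 and 7738 RPKM in WT replicates 2, 3 and 4 and at 6240.4, 6414 and 5392 in KO replicates 1, 2 and 3 (log2 fold change -0.13, adjusted p = 0.56). mt-Nd4 had 5748, 5595 and 7842 RPKM in WT and 5953, 5442 and 4838 in KO (-0.23, adjusted p = 0.329). In both genes WT replicate 4 was the highest library and KO replicate 3 the lowest. mt-Nd4l, whose coding sequence runs into that of mt-Nd4, was at 9889, 9764 and 13044 RPKM in WT and 9649, 9624 and 8090.3 in KO. Its KO libraries all lay below the WT libraries, by 115 RPKM at the nearest, and the log2 fold change of -0.25 did not pass (adjusted p = 0.264).

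mt-Nd5, the largest complex I subunit made in the mitochondrion, stood at 6359, 6369 and 7963 RPKM in WT replicates 2, 3 and 4 and at 6153, 5857 and 4949 in KO replicates 1, 2 and 3. Every KO library was below every WT library, by 206 RPKM at the nearest, and the gene did not pass (log2 fold change -0.28, SE 0.13, adjusted p = 0.176). mt-Nd6, the only mRNA of the minus strand, had 8383, 7239.8 and 9168 RPKM in WT and 7375, 7388 and 5997 in KO, with overlapping groups (-0.26, adjusted p = 0.215). The ratio of summed plus-strand mRNA to mt-Nd6 was 7.18 ± 0.639 in WT and 7.30 ± 0.243 in KO (± SD, 3 libraries each; exact two-sided permutation p = 0.8).

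mt-Cytb, the cytochrome b of complex III, was at 7555, 7149.7 and 8980.4 RPKM in WT replicates 2, 3 and 4 and at 6802, 6926 and 5968 in KO replicates 1, 2 and 3. The groups did not overlap, and the log2 fold change of -0.26 (SE 0.12) did not pass (adjusted p = 0.174). mt-Co1, the catalytic subunit of complex IV, had 7198, 6176 and 9087 RPKM in WT and 6540.3, 6251 and 5536 in KO, with overlapping groups (-0.28, SE 0.15, adjusted p = 0.239).

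These 8 abundant mRNAs moved as a block between libraries. WT replicate 4 was the highest of all 6 libraries for 8 of 8, KO replicate 3 the lowest KO library for 8 of 8, and WT replicate 3 the lowest WT library for 7 of 8. All 8 log2 fold changes were below 0, from -0.28 to -0.13, and none was called; at an unadjusted p under 0.05 the count was 0 as well.

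The 2 rRNAs are the RNAs of the small and large mitochondrial ribosomal subunits, and their libraries had another order. mt-Rnr1 was at 454, 303 and 287 RPKM in WT replicates 2, 3 and 4 and at 305, 333 and 329 in KO replicates 1, 2 and 3. mt-Rnr2 had 254, 186 and 195 RPKM in WT and 215, 259 and 243 in KO. WT replicate 2 was the highest library for mt-Rnr1 and KO replicate 2 for mt-Rnr2, and the groups overlapped in both. The log2 fold changes were -0.08 (adjusted p = 0.77) and 0.18 (adjusted p = 0.368).

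mt-Tv, the valine tRNA that sits between the 2 rRNA genes, fell the most of the members called lower. It had 159, 149 and 105 RPKM in WT replicates 2, 3 and 4, from 763, 558 and 476 reads, and 39.0, 46.9 and 46.5 RPKM in KO replicates 1, 2 and 3, from 185, 180 and 196 reads. The lowest WT library was more than the highest KO library by 58.4 RPKM. The group means were 138 ± 28.4 and 44.1 ± 4.43 RPKM (SD, n = 3 each). On the log2 scale mt-Tv differed by -1.60 (SE 0.16, adjusted p = 0.00143, limma).

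mt-Tm, the methionine tRNA before mt-Nd2, was the most abundant tRNA gene of the plus strand. It stood at 3360, 3152 and 3229 RPKM in WT replicates 2, 3 and 4 and at 1725, 1790.5 and 1682 in KO replicates 1, 2 and 3. The libraries of each group lay close together and the groups far apart, with means of 3247 ± 105 and 1732 ± 54.6 RPKM (SD, n = 3 each). The log2 fold change was -0.91 (SE 0.09, adjusted p = 0.00136).

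mt-Tl1, the leucine tRNA between mt-Rnr2 and mt-Nd1, had 558, 612 and 762 RPKM in WT replicates 2, 3 and 4 and 383, 346 and 328 in KO replicates 1, 2 and 3. The groups did not overlap, and the log2 fold change was -0.86 (SE 0.13, adjusted p = 0.00597). The calls of mt-Tv, mt-Tm and mt-Tl1 held in all 6 fits that left out 1 library, with adjusted p of up to 0.0124, 0.0142 and 0.0364. In the authors' deposited table the same 3 genes had an FDR under 0.05 (0.00127 for mt-Tv, 0.00145 for mt-Tm and 0.0215 for mt-Tl1), where 1.62% of all listed genes did.

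**Figure D3:**
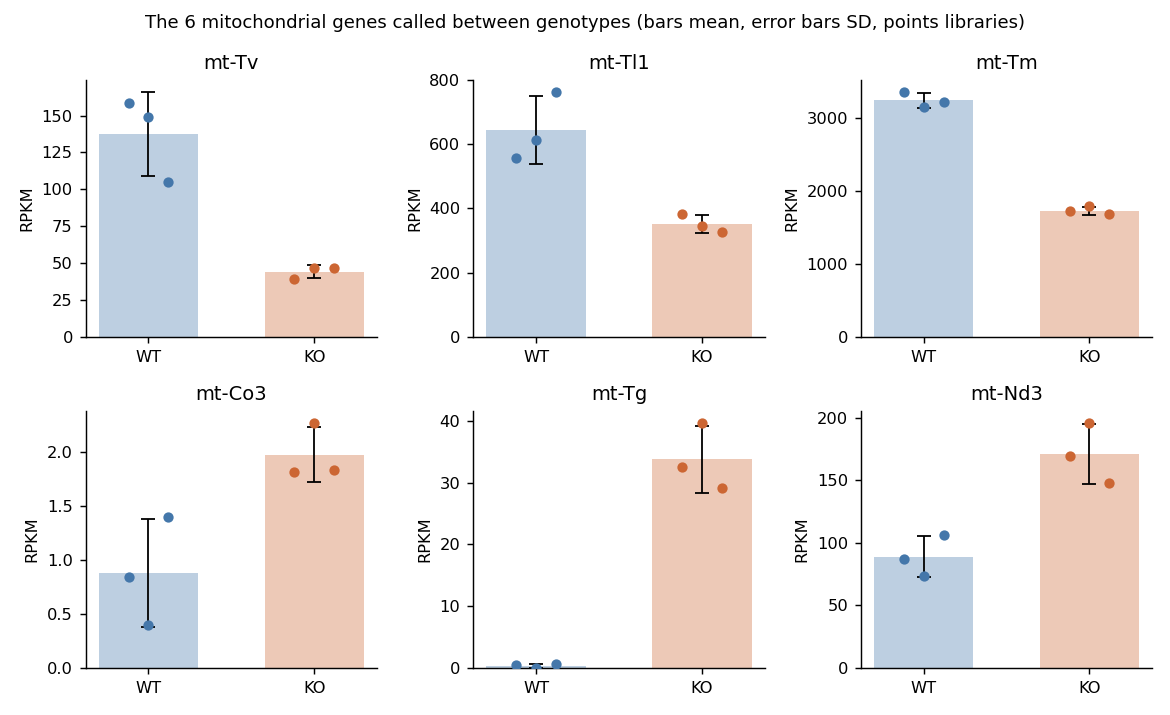
RPKM of the 6 called mitochondrial genes in WT and KO, each panel with its own axis from 0; bars are means of 3 libraries, error bars SD and points libraries. The KO points lie below all WT points for mt-Tv, mt-Tl1 and mt-Tm and above them for mt-Co3, mt-Tg and mt-Nd3.

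Set against the genes they adjoin, the 3 lower tRNA genes were lower in KO too. These genes were picked because they were called lower, and the ratios were chosen after seeing the data. The adjoining mt-Rnr1, mt-Nd1 and mt-Nd2 had log2 fold changes of -0.08, -0.19 and -0.13. Lower ratios thus follow from the selection and are no separate support. The ratio of mt-Tv to mt-Rnr1 was 0.350, 0.491 and 0.367 in WT replicates 2, 3 and 4 and 0.128, 0.141 and 0.141 in KO replicates 1, 2 and 3. The ratio of mt-Tm to mt-Nd2 was 0.499 ± 0.0749 in WT and 0.289 ± 0.0198 in KO (± SD, 3 libraries each). The ratio of mt-Tl1 to mt-Nd1 was 0.0495 ± 0.00491 and 0.0310 ± 0.000771. In each of these the groups did not overlap, with an exact two-sided permutation p of 0.1, the smallest that 3 against 3 libraries can give. For the minus-strand tRNA genes mt-Ty over mt-Co1 and mt-Te over mt-Nd6 the groups overlapped (0.949 ± 0.121 against 0.937 ± 0.0372, and 0.675 ± 0.0321 against 0.683 ± 0.0164, exact permutation p = 0.8 each). In all, 28 such values per library were compared, and after Benjamini-Hochberg adjustment the lowest p was 0.233.

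**Figure D4:**
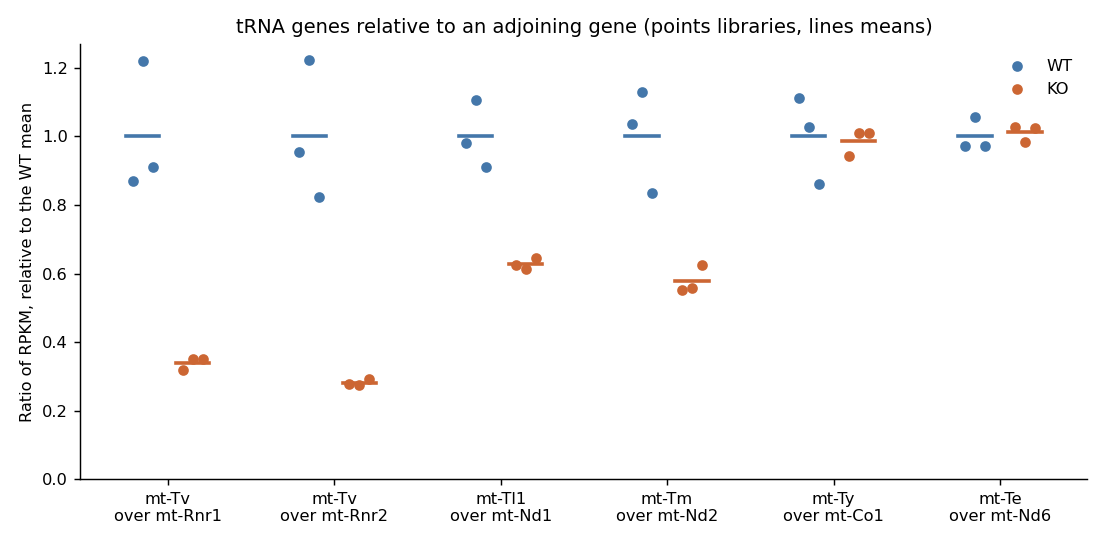
Ratio of the RPKM of a tRNA gene to that of an adjoining gene, relative to the WT mean of that ratio, for 3 WT (blue) and 3 KO (orange) libraries; lines are means. KO points lie below all WT points for mt-Tv, mt-Tl1 and mt-Tm and among them for mt-Ty and mt-Te.

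Of the other plus-strand tRNA genes, mt-Tg is described with its neighbours further on, and the remaining 7 were scarce and did not pass. mt-Tw, the tryptophan tRNA after mt-Nd2, was at 380, 265 and 258 RPKM in WT replicates 2, 3 and 4 and at 204, 241 and 210 in KO replicates 1, 2 and 3, with no overlap (log2 fold change -0.44, adjusted p = 0.0872). mt-Ti, the isoleucine tRNA after mt-Nd1, had 70.7, 36.0 and 53.3 RPKM in WT and 33.3, 38.1 and 30.1 in KO (-0.60, adjusted p = 0.097). The run of mt-Th, mt-Ts2 and mt-Tl2, the histidine, serine and leucine tRNAs between mt-Nd4 and mt-Nd5, had WT means of 104, 112 and 113 RPKM and KO means of 74.3, 81.1 and 63.2. Within this run WT replicate 4 was the highest and KO replicate 2 the highest KO library for each gene, and the adjusted p were 0.336, 0.366 and 0.0774. mt-Tt, the threonine tRNA after mt-Cytb, averaged 48.1 ± 14.8 RPKM among the WT libraries and 28.1 ± 13.3 among the KO libraries (SD, n = 3 each; adjusted p = 0.125). mt-Tr, the arginine tRNA before mt-Nd4l, averaged 184 ± 17.3 and 190.5 ± 61.6 RPKM (adjusted p = 0.996), and KO replicates 2 and 3 were its highest and lowest libraries.

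Among the 8 minus-strand tRNA genes were mt-Ty and mt-Te, the tRNA genes of highest and second highest level in all 6 libraries. mt-Ty, the tyrosine tRNA, had 7601, 6014 and 7423 RPKM in WT replicates 2, 3 and 4 and 5844, 5989.7 and 5303 in KO replicates 1, 2 and 3, so that the groups were apart by 23.8 RPKM (log2 fold change -0.29, adjusted p = 0.135). mt-Te, the glutamate tRNA next to mt-Nd6, had 5501, 5154 and 6018 RPKM in WT and 5119, 4905 and 4139.6 in KO, again with no overlap (-0.24, adjusted p = 0.197). mt-Tc, mt-Tn and mt-Ta, the cysteine, asparagine and alanine tRNAs beside mt-Ty, stood in this order of level in every library. Their WT means were 3456, 2448 and 2065 RPKM and their KO means 2795, 1964 and 1628, WT replicate 2 was the highest library for all 3, and none passed (adjusted p from 0.23 to 0.258). mt-Tp, the proline tRNA, was nearest to the threshold of the uncalled members, at 193 ± 36.7 and 134 ± 18.6 RPKM (SD, n = 3 each; adjusted p = 0.0598). mt-Tq and mt-Ts1, the glutamine and a serine tRNA, had log2 fold changes of 0.10 and -0.26 (adjusted p = 0.668 and 0.453).

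The order of the libraries varied among the tRNA genes. WT replicate 2 was the highest library for 9 of the 19, WT replicate 4 for 6 and KO replicate 2 for 4. Among the KO libraries, KO replicate 2 was the highest for 17 of 19 tRNA genes and replicate 3 the lowest for 15. Over the libraries the summed plus-strand tRNA was 0.0845 ± 0.0118 of the summed plus-strand mRNA in WT and 0.0567 ± 0.00392 in KO, by RPKM (SD, n = 3 each; exact permutation p = 0.1). Most of the plus-strand tRNA sum is mt-Tm, with means of 3247 RPKM in WT and 1732 in KO. The ratio therefore largely repeats the call of mt-Tm and does not describe the strand as a whole. On the minus strand the tRNA sum over mt-Nd6 was 2.59 ± 0.286 and 2.54 ± 0.143 (exact permutation p = 0.9). Of the 48 other tested genes under 110 bases 11 were called lower and 3 higher, beside 13.5% and 3.83% of all tested genes, with a median log2 fold change of -0.23. The part of gene length in the tRNA results was not tested.

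The 3 higher calls lay side by side, in the stretch that also held the 3 mRNA genes of lowest level. It is matched by a nuclear copy on chromosome 1, annotated in GRCm38 as a row of pseudogenes on the minus strand from 24611535 to 24616197, which runs from part of mt-Co1 to part of mt-Nd4. Over the compared bases the copies Gm10925 of mt-Atp6 (678 bases), Gm28437 of mt-Co3 (783 bases), Gm10222 of mt-Nd4l (294 bases) and Gm28439 of mt-Nd4 (876 bases) had 0 differences from the mitochondrial genes. Some copies were listed at the level of the abundant mitochondrial mRNAs. Gm10925 had 29807, 25841 and 33111 RPKM in WT replicates 2, 3 and 4, while mt-Atp6, a subunit of ATP synthase, was at 2.87, 1.89 and 3.14 RPKM. Gm28437 stood at 7379 to 10549 RPKM over the WT libraries where mt-Co3, a subunit of complex IV, had 0.399 to 1.40. Over the compared bases a read of mt-Atp6 or mt-Co3 cannot be told apart by sequence from one of its copy.

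mt-Tg, the glycine tRNA between mt-Co3 and mt-Nd3, was the most changed member. It had 2, 0 and 3 reads in WT replicates 2, 3 and 4 and 152, 150 and 121 reads in KO replicates 1, 2 and 3. The 0 in WT replicate 3 allows up to 3 reads, or 0.811 RPKM. Over the pooled reads, 5 against 423, the KO level was 86.5 times that of WT (exact Clopper-Pearson 95% interval 36.8 to 268, counting error only). The limma adjusted p was 5.55e-05, and in the authors' deposited table the FDR was 0.0577. As mt-Tg passed the filter only through the KO libraries, its limma p follows in part from the filter. On chromosome 1 the matching place is the 69 bases between Gm28438 and Gm28437, which hold no annotated gene; their sequence was not compared with mt-Tg here.

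mt-Nd3, the complex I subunit that follows mt-Tg, had 87.2, 73.9 and 106 RPKM in WT replicates 2, 3 and 4 and 169, 196 and 148 in KO replicates 1, 2 and 3. The groups did not overlap, and the log2 fold change was 0.94 (SE 0.15, adjusted p = 0.00721). It kept its call in all 6 fits without 1 library (adjusted p of up to 0.0316), and in the authors' deposited table its FDR was 0.328. Its copy Gm28438 went the other way, at 206, 167 and 262 RPKM in WT and 143, 135 and 144 in KO (log2 fold change -0.56, adjusted p = 0.0407). Added together, the reads of both came to 291, 239.8 and 366 RPKM of the mt-Nd3 length in WT and 311, 330.2 and 291 in KO. The groups overlapped in the sum (log2 fold change 0.08, adjusted p = 0.753 in limma), and mt-Nd3 took 29.9% ± 0.906 of it in WT and 54.8% ± 4.34 in KO (± SD, 3 libraries each).

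Over 345 bases mt-Nd3 and Gm28438 differ at 1, written T3C with positions counted from the first base of mt-Nd3. That base is chromosome M 9461 in GRCm38, 3 bases after the end of mt-Tg. The first 60 bases of both are shown with this base in capitals, each read along its own gene.
mt-Nd3 (chrM:9459-9518, plus strand): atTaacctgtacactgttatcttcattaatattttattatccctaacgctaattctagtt
Gm28438 (chr1:24613060-24613119, minus strand): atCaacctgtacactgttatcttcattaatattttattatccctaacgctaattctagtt
Which base the reads of each library carried was not analysed here, and its part in the levels of mt-Tg and mt-Nd3 was not tested.

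**Figure D5:**
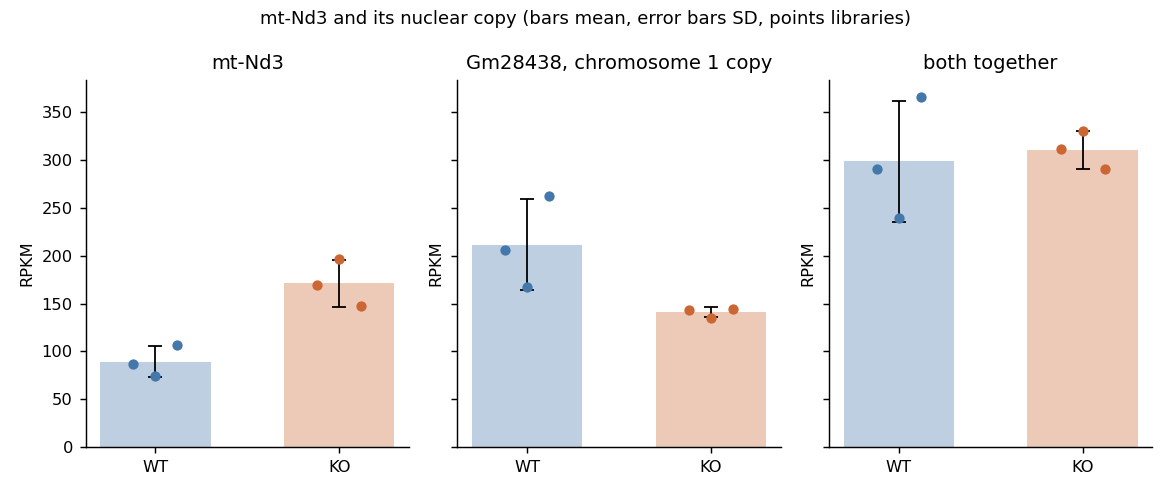
RPKM of mt-Nd3, of its chromosome 1 copy Gm28438 and of both together (reads of both over the mt-Nd3 length) in 3 WT and 3 KO libraries; bars are means, error bars SD and points libraries. KO is higher for mt-Nd3 and lower for Gm28438, and the groups overlap in the sum.

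mt-Co3 was called on few reads, 46, 17 and 72 in WT replicates 2, 3 and 4 and 98, 99 and 88 in KO replicates 1, 2 and 3. Its log2 fold change of 0.69 (SE 0.18, adjusted p = 0.0333) passed in 1 of the 6 fits without a library, that without WT replicate 4, and the adjusted p reached 0.101 in the others. In the fit without WT replicate 4, mt-Co3 met the filter only through the KO libraries, with WT replicates 2 and 3 at 0.842 and 0.399 RPKM. That pass follows in part from the filter. Summed with the reads of Gm28437, mt-Co3 was at -0.34 (adjusted p = 0.152), the opposite direction. mt-Atp6 averaged 2.63 ± 0.655 RPKM over the WT libraries and 2.68 ± 0.0575 over the KO libraries (SD, n = 3 each; adjusted p = 0.872), and with Gm10925 29459 ± 3625 and 25193 ± 774. Farther along, mt-Nd4l held 99.7% to 99.9% of the reads it shares with Gm10222 in WT, yet that copy was at 26.0, 12.7 and 35.9 RPKM in WT replicates 2, 3 and 4 and at 1.04, 1.77 and 1.22 in KO replicates 1, 2 and 3 (log2 fold change -3.36, adjusted p = 0.00136). With 6 mitochondrial mRNA genes each summed with their chromosome 1 copy (copies elsewhere were not added), 1 member was called higher, mt-Tg, and the same 3 tRNA genes were called lower. No tRNA gene had a copy added, so the tRNA values were unchanged and their calls in this fit say nothing about copies.

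The measured mitochondrial genes took 6.72%, 6.24% and 8.49% of the counted reads in WT replicates 2, 3 and 4 and 6.44%, 6.23% and 5.41% in KO replicates 1, 2 and 3. The groups overlapped (exact two-sided permutation p = 0.2), and the difference of -1.12 percentage points became -0.45 without WT replicate 4. The mRNAs made up nearly all of it, at 6.90% ± 1.19 in WT and 5.82% ± 0.541 in KO, and the rRNAs 0.0667% ± 0.0145 and 0.0686% ± 0.00491. The tRNA genes took 0.179% ± 0.0196 and 0.139% ± 0.011 (SD, n = 3 each), with no overlap between groups (exact permutation p = 0.1). With the chromosome 1 copies added, the share was 10.8% ± 1.75 in WT and 9.14% ± 0.709 in KO (exact permutation p = 0.2). In bulk muscle, fewer mitochondria-rich fibres and less mitochondrial RNA per fibre cannot be told apart.

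Markers of other cells and fibres did not all stay level. Of the 5 tested nerve and Schwann cell markers 4 were called lower, with a summed level of 36.4 to 55.2 RPKM in WT and 11.7 to 14.5 in KO. The list of slow or heart muscle genes summed to 697, 119 and 486 RPKM in WT replicates 2, 3 and 4 and to 225 to 366 in KO, with none of 6 called in limma (0 at an unadjusted p under 0.05). Of the 4 myosins that mark fibre types, Myh2 and Myh1 of fast oxidative and intermediate fibres were called lower, from 1621 ± 168 to 896 ± 308 RPKM (log2 fold change -0.90, adjusted p = 0.0261) and from 2432 ± 678 to 1135 ± 299 RPKM (-1.09, adjusted p = 0.0225). Myh4 of fast glycolytic fibres (0.30, adjusted p = 0.0885) and Myh7 of slow fibres (-0.13, adjusted p = 0.914) did not pass. Of 9 tested endothelial genes 1 was called lower, Cldn5 (-1.03, adjusted p = 0.00744), again beside 13.5% of all tested genes. Cldn5 met the filter only through the WT libraries, so this call too follows in part from the filter. Summed, the endothelial list was at 28.8 to 43.5 RPKM in WT and 25.0 to 27.3 in KO. Red blood cell genes summed to 25.5 to 44.5 RPKM in WT and to 18.3, 110 and 69.1 in KO replicates 1, 2 and 3. All 4 tested had log2 fold changes above 0 (median 0.50), and 0 were called in limma. The 1 tested macrophage gene, Lyz2, was not called (0.09, adjusted p = 0.851). The part of these markers in the mitochondrial results was not tested.

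Nuclear genes that serve the mitochondrial genome were counted by role, beside 13.5% of all tested genes called lower and 33.4% at an unadjusted p under 0.05. Of 7 tested genes of mitochondrial transcription none was called in limma (2 lower at an unadjusted p under 0.05), with the polymerase Polrmt at 1.54 ± 0.0865 RPKM in WT and 1.23 ± 0.162 in KO and the terminator-like factor Mterf3 at the smallest p (adjusted p = 0.102). Of 19 genes of RNA processing and stability none was called (4 lower and 1 higher at an unadjusted p under 0.05). Elac2, the enzyme that cuts the tail end of tRNAs out of the precursor, had the smallest p of these, at 6.53 ± 1.10 RPKM and 4.77 ± 0.583 (adjusted p = 0.0738). Of 17 genes that charge or modify mitochondrial tRNAs 3 were called lower. These were the isoleucine ligase Iars2, from 4.89 ± 0.195 to 3.56 ± 0.0867 RPKM, the modifying enzyme Gtpbp3, from 1.31 ± 0.212 to 0.764 ± 0.0698, and the pseudouridine synthase Pus1, from 2.57 ± 0.0929 to 1.94 ± 0.164 (SD, n = 3 each). Gtpbp3 met the filter only through the WT libraries, so its call follows in part from the filter. Of 9 genes of mitochondrial DNA replication 1 was called lower, the RNA-degrading Rnaseh1, from 5.76 ± 0.0265 to 4.43 ± 0.0211 RPKM.

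The nuclear partners of the mitochondrial subunits are given by complex. The median log2 fold change was -0.14 over 37 tested genes of complex I, -0.17 over 9 of complex III, -0.21 over 12 of complex IV and -0.15 over 18 of ATP synthase, beside -0.23 for the mitochondrial mRNAs and -0.09 for all tested genes. Without WT replicate 4 the last 2 were -0.07 and -0.10, in the opposite order. None of the complex I genes was called in limma (8 lower at an unadjusted p under 0.05), and the smallest p was that of Ndufb5 (adjusted p = 0.053). Called lower were Uqcrc2 and Uqcrq of complex III, Cox6b1 of complex IV and Atp5l of ATP synthase, with log2 fold changes of -0.31, -0.34, -0.32 and -0.30. By list, those called lower were 0 of 7 for transcription, 0 of 19 for RNA processing, 3 of 17 for tRNAs and 1 of 9 for replication. For complexes I, III and IV and ATP synthase they were 0 of 37, 2 of 9, 1 of 12 and 1 of 18. Over all tested genes it was 13.5%. These 8 genes became 0 without KO replicate 1, 2 or 3, where the calls over all tested genes went from 1021 to 380, 508 and 342. Without WT replicate 3 it was 1 (393 over all genes) and without WT replicate 2 it was 4 (617). With equal library medians 1 was called lower and 1 higher.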

How the data were processed

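The authors' deposited values behave as RPKM, that is, gene counts divided by gene length and library total; no header names this unit, which was inferred from the values. GRCm39 is the build in the submitters' processing notes, and the sources used here name no aligner, counter, annotation, strand setting or rule for reads with several matches. Per the file headers the authors' table also holds a log2 fold change, a log2 CPM, an F statistic (a score) and a p-value with its FDR. Multiplying RPKM by GENCODE M21 gene length (GRCm38) gave library totals of 54370181 to 69693905 reads and whole reads for all 32 members. Coordinates and sequences are those of GRCm38.

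Genotypes were compared by limma-trend (limma 3.58.1, R 4.3.3), with genotype as the one term, on log2(RPKM + 1) of each gene reaching 1 RPKM in 3 or more libraries; this scale understates changes of low genes. Values per library were compared with exact permutation tests (scipy 1.17.1). Stretches of 50 bases shared with other genes were searched among GENCODE transcripts. The fit was tested on simulated data. The text names every member and, of each nuclear list, the called genes or the one of smallest p; Polrmt and the copies were named after their values were seen. Members and lists were chosen with earlier results of these data known, and the ratios of tRNA genes to neighbours, the pairing with copies, the level of 1000 RPKM and the set of genes under 110 bases were chosen after seeing the data. Alternatives were a pseudocount of 0.1, no filter, 3 other scalings, limma-voom on recovered reads, leaving out each library, a block for replicate number and, added after seeing the data, members summed with their copies.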

Additional observations from a re-analysis of the deposited data

How the results depend on the processing

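mt-Tv, mt-Tm and mt-Tl1 stayed called lower in every fit run, and mt-Nd3 stayed called higher except when summed with its copy. The fit with copies left the values of mt-Tv, mt-Tm and mt-Tl1 unchanged. The number of members called lower was 3 to 5 with 1 library left out and 9 with replicate number as a block, which added mt-Ti, mt-Tw, mt-Tl2, mt-Tp, mt-Tt and mt-Ta. The labels share numbers 2 and 3 between the groups; same-numbered libraries deviated together (r = 0.48 and 0.27 across genes), but nothing says that a number marks a shared animal or day. The number called higher was 1 to 3 with 1 library left out, and was 1 without any one KO replicate, where mt-Tg failed the filter and mt-Co3 lost its call; it was also 1 with members summed with their copies. The nuclear lists, whose shares are given above, had 8 genes called lower in the main test and 0 to 8 with 1 library left out. With equal library medians 1 was called lower and 1 higher, as also without the 10 most abundant genes in the totals. The block called 1 higher.

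Fold changes that changed sign were small and uncalled but for mt-Co3 (-0.34 with its copy). mt-Atp6 went to -0.22 with its copy. Without the 10 most abundant genes mt-Nd2 went to 0.023 and mt-Rnr1 to 0.0696, and mt-Rnr1 also to 0.021 with equal medians. mt-Tr went to -0.015 without mitochondrial genes in the totals, -0.0013 in limma-voom, and -0.083 with the block. With 1 library left out, mt-Atp6 ran from -0.12 to 0.14, mt-Nd1 from -0.30 to 0.00057, mt-Rnr1 from -0.20 to 0.13, mt-Tq from -0.065 to 0.22 and mt-Tr from -0.23 to 0.24, the rRNA share differed by -0.0023 to 0.0103 percentage points and the ratio of plus-strand mRNA to mt-Nd6 by -0.19 to 0.45. The ratio of tRNA to mRNA differed, KO minus WT, by -0.037 from sums and by 0.00085 from medians. The cause of these changes was not tested. The WT libraries had at most 3 reads on mt-Tg and 72 on mt-Co3; the part of depth and of read placement on the copy was not tested.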
